A study of Mus musculus with 18 samples.

Results

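C/EBPα on chromatin 10 min after induction was read against the PU.1 landscape that pre-B cells carried before induction. One ChIP-seq library of C/EBPα, taken 10 min after induction, was set beside one library of PU.1 at 0 hours post-induction (hpi). The mouse genome (mm9, chr1-19) was divided into 200-bp bins, 1 read was kept per position and strand, 5′ ends were moved 75 bp inward, and the C/EBPα library was thinned at random to the 6884238 reads of the PU.1 library. Bins with 8 or more reads in either library were taken, which gave 51303 of 11968110 bins (0.429%). Of these, 48071 bins (0.402% of all bins) were PU.1-rich, meaning 8 or more PU.1 reads, and 5460 (0.0456%) were C/EBPα-rich. A total of 2228 bins (0.0186%) were rich in both factors. Every taken bin under 8 PU.1 reads is C/EBPα-rich by construction, so C/EBPα was compared across PU.1 classes over all bins, and the libraries of other time points served as values that took no part in the choice of bins.

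The cells were C10, a pre-B line derived from HAFTL cells that carries C/EBPα fused to the estrogen receptor. β-estradiol was added to activate the fusion (its activity without β-estradiol was not tested here), and induced cells were cultured with IL-3 and CSF-1 on their way to a macrophage state. All libraries came from this one line, so that they hold no variation between clones or animals, and control cells received the ethanol solvent. The antibody was directed to C/EBPα, so that fusion and endogenous protein cannot be told apart in these reads. The files hold no RNA, so the labelled cell type was not checked against expressed markers.

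C/EBPα is a basic leucine zipper factor that binds DNA as a dimer and directs granulocyte and monocyte development. PU.1 is an ETS factor that recognises purine-rich GGAA sequences, occupies many enhancers in both B cells and macrophages, and often keeps them accessible. C/EBPβ recognises the same sequences as C/EBPα and can form heterodimers with it.

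Each factor and time was sequenced as a single library, which left no test between libraries. All intervals are 95% intervals (exact Poisson for reads, exact Clopper-Pearson for shares), cover counting error only, and leave out any spread between cultures. They also leave out spread between bins and treat adjoining bins as independent, which makes them too narrow. The 48071 PU.1-rich bins, for example, formed 31384 runs of adjacent bins. The C/EBPα library of 10 min held 24236183 reads on chr1-19 and that of 0 hpi 8651671, and the 18 libraries ranged from 2824293 to 24236183. The C/EBPα libraries of 10, 30 and 60 min had 50-base reads from a HiSeq2000 and that of 0 hpi had 36-base reads from a GA IIx, so that between 0 hpi and 10 min time and sequencer cannot be told apart. Values from 10 min to 30 and 60 min are within 1 sequencer and are given beside them. With 1 read kept per position and strand a bin can hold at most 400 reads, and the deepest libraries came near enough to this limit at the strongest sites to flatten them. Of the 2228 bins rich in both factors, 11.1% had over 100 reads at 10 min before thinning, 24.5% at 30 min and 35.8% at 60 min.

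A group of bins had reads in all libraries alike. Bins in runs of more than 10 adjacent taken bins, or in the first 3.2 Mb of a chromosome, made up 432 of the 51303 bins taken. They included 272 of the 2228 bins rich in both factors (12.2%). Their mean C/EBPα level was already 21.9 reads at 0 hpi and 17.6 at 10 min, against 6.60 and 15.5 in the other 1956. They are counted in the values below, which are given again without them where this matters.

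Sequences of 6 bins show the 3 situations, the first 2 bins of each set by read count. Letters are mm9, plus strand, and capitals mark the PU.1 consensus GAGGAAGT and the C/EBP consensus TTGCNNAA, searched on both strands. The bins rich in both factors lay in an intron of *Hs3st1*, a heparan sulfate sulfotransferase gene (chr5:40022201-40022400), and 2965 bp upstream of *Irf2bp2*, which encodes a partner of IRF2 (chr8:129120201-129120400). Those with C/EBPα alone lay between genes, 36834 bp upstream of *Mrps18a*, a mitochondrial ribosome gene (chr17:46211001-46211200), and in an intron annotated to *Smad3*, the TGF-β signal transducer, 4325 bp upstream of the TSS nearest to the bin (chr9:63564001-63564200). Those with PU.1 alone lay 13832 bp upstream of *Tet3*, a 5-methylcytosine oxidase gene (chr6:83405401-83405600), and in an intron of *Ahnak*, which encodes a large scaffold protein (chr19:9115601-9115800).
Hs3st1: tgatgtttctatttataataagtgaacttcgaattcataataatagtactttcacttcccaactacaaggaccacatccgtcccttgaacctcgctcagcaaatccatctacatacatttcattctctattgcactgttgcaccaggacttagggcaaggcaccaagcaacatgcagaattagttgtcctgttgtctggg
Irf2bp2: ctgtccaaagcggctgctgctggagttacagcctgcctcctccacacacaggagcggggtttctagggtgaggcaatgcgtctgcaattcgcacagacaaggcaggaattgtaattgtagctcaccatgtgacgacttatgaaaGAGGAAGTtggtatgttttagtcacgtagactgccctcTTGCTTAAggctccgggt
Mrps18a: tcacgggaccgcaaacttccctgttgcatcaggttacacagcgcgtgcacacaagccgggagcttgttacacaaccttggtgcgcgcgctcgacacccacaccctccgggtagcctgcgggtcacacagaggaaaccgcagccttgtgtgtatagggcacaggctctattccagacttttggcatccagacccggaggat
Smad3: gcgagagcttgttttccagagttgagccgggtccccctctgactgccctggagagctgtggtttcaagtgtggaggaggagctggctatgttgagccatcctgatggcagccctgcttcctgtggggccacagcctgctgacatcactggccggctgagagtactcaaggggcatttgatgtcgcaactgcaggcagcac
Tet3: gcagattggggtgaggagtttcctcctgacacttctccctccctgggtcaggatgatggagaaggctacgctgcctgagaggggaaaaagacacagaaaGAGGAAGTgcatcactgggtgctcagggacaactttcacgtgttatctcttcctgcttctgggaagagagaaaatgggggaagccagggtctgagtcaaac
Ahnak: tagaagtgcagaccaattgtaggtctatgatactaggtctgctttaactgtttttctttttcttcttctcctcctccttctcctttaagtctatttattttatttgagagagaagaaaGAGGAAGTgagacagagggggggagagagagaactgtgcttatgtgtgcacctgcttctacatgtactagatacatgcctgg
The *Irf2bp2* bin held both consensus sequences and the *Tet3* and *Ahnak* bins the PU.1 consensus, whereas the *Hs3st1*, *Mrps18a* and *Smad3* bins held no exact copy of either. A bin without these letters can hold other variants of a site.

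C/EBPα reads at 10 min were higher the more PU.1 a bin had held before induction. The mean per bin was 0.541 (0.540 to 0.541) in the 10707030 bins with 0 or 1 PU.1 read and 4.02 (3.94 to 4.10) in the 2497 bins with 64 or more, a difference of 7.44-fold. Between them the means were 0.788 in bins with 2 to 3 PU.1 reads, 1.10 with 4 to 7, 1.70 with 8 to 15, 2.16 with 16 to 31 and 2.76 with 32 to 63. The median was 0 reads in the lowest class, 1 read from 2 PU.1 reads up to 63 and 2 reads above that. The share of bins with no C/EBPα read at this depth was 61.4% in the lowest class and 20.3% in the highest, and it was lower in each class than in the one before.

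The same gradient was present in the C/EBPα library of 0 hpi, thinned to the same depth. There the means ran from 0.531 to 3.35, a difference of 6.30-fold between the lowest and the highest class. Without the long runs and chromosome starts the mean of the highest class was 3.72 at 10 min and 2.77 at 0 hpi. That of the lowest class was then 0.541 and 0.532. The share of bins that passed 8 C/EBPα reads differed more between the libraries than the mean did. It was 3.37% of bins with 8 to 15 PU.1 reads at 10 min and 1.81% at 0 hpi, 7.47% and 2.54% with 32 to 63, and 11.5% (10.3 to 12.9) and 5.01% (4.18 to 5.94) with 64 or more. In bins with 0 or 1 PU.1 read it was 0.00999% at 10 min and 0.00729% at 0 hpi. Within 1 kb of a TSS the share was lower at 10 min than at 0 hpi in each class up to 15 PU.1 reads. It was 2.56% against 3.17% for 8 to 15 PU.1 reads and 0.927% against 1.22% for 4 to 7. In each class from 16 PU.1 reads up it was higher at 10 min, with 3.74% against 2.82% for 16 to 31 and 10.9% against 6.55% for 64 or more. The intervals at 10 min and 0 hpi overlapped in every class near a TSS. Over all PU.1-rich bins, 4.63% (4.45 to 4.83) were C/EBPα-rich at 10 min, beside 0.0456% of all bins, and 2.16% at 0 hpi, beside 0.0249% of all bins. Without the long runs and chromosome starts the shares of PU.1-rich bins were 4.10% at 10 min and 1.60% at 0 hpi. Those of bins with 64 or more PU.1 reads were then 10.7% and 4.13%.

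**Figure D1:**
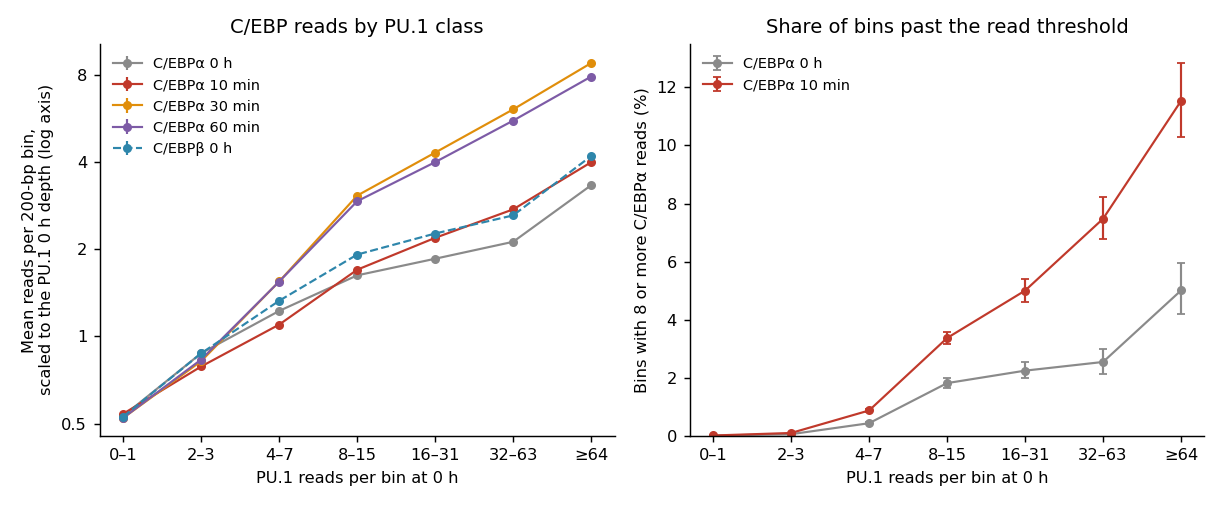
C/EBP reads in 200-bp bins by the number of PU.1 reads at 0 hpi. Left, mean reads per bin (log axis, all reads of a library scaled to the PU.1 depth, bars are 95% Poisson intervals and are mostly smaller than the points). Right, percent of bins with 8 or more C/EBPα reads after thinning, with 95% Clopper-Pearson intervals. The lines of 0 hpi and 10 min lie close together on the left, with 3.32 and 3.99 reads in the highest class when all reads are used, and the share on the right reaches 11.5% at 10 min and 5.01% at 0 hpi.

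With all reads of both libraries scaled to equal depth, the ratio of 10 min to 0 hpi was 1.02 in bins with 0 or 1 PU.1 read, 0.900 with 2 to 3, 0.897 with 4 to 7, 1.05 with 8 to 15, 1.18 with 16 to 31, 1.29 (1.27 to 1.32) with 32 to 63 and 1.2003 (1.17 to 1.23) with 64 or more. The highest class included 26 bins in long runs or at chromosome starts. Without all such bins the ratio was 1.33 with 32 to 63 and 1.35 (1.31 to 1.38) with 64 or more. The direction differed with position and, away from TSSs, with the PU.1 class. Within 1 kb of the TSS of a protein-coding gene the ratio was under 1 in every class, between 0.739 and 0.904. The C/EBPα library of 0 hpi thus had more reads there, although the share of C/EBPα-rich bins was higher at 10 min from 16 PU.1 reads up. Farther away the ratio was 1.03 in bins with 0 or 1 PU.1 read, 0.911 with 2 to 3 and 0.924 with 4 to 7. In the classes above it was 1.10 in bins with 8 to 15 PU.1 reads, 1.24 with 16 to 31, 1.36 with 32 to 63 and 1.27 with 64 or more. Bins near a TSS were richer in G and C (median 54.0% with 32 to 63 PU.1 reads, against 47.0% farther away), and the part of GC content and of the sequencer in this difference was not tested.

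Within the libraries of one sequencer the PU.1 gradient was steeper after 10 min. The mean at 30 min was 0.968 times that at 10 min in bins with 0 or 1 PU.1 read, 1.41 times with 4 to 7, 1.80 times with 8 to 15, 1.97 times with 16 to 31, 2.21 times with 32 to 63 and 2.20 times (2.17 to 2.23) with 64 or more. At 30 min the highest class stood 16.8-fold above the lowest and at 60 min 15.1-fold, compared with 7.44-fold at 10 min. The PU.1-rich bins took 1.43% of all C/EBPα reads at 10 min, 2.78% at 30 min and 2.60% at 60 min, and 1.27% at 0 hpi. The C/EBPα library of 10 min thus lay much nearer to that of 0 hpi than to that of 30 min in these bins. C/EBPβ at 0 hpi, which was pulled down with another antibody, had a mean of 0.529 in the lowest and 4.19 in the highest class.

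Around the strongest PU.1 bin of each neighbourhood, C/EBPα reads formed a peak on the same 200 bp. At 2061 such summits with 64 or more PU.1 reads, the mean at 10 min was 3.796 in the summit bin, 1.97 and 2.04 in the adjoining bins, and 0.92 and 0.98 at 2 kb on either side. At 0 hpi the summit bin had 2.72 reads and the flanks at 2 kb 1.08 and 1.12. The summit was thus higher at 10 min while the flanks were lower. At the 16378 summits with 8 to 15 PU.1 reads the summit bin differed little, with 1.56 reads at 10 min and 1.49 at 0 hpi.

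**Figure D2:**
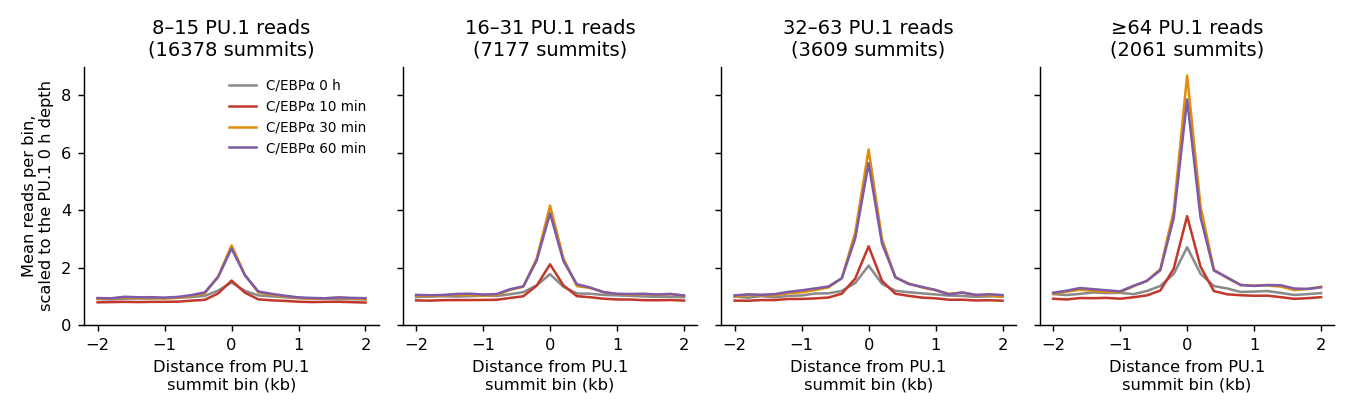
Mean C/EBPα reads per bin around PU.1 summit bins, scaled to the PU.1 depth, against distance from the summit in kb, in 4 classes of PU.1 reads at the summit. Lines are the libraries of 0 hpi, 10, 30 and 60 min. In the highest class the summit bin has 2.72 reads at 0 hpi, 3.796 at 10 min, 8.69 at 30 min and 7.86 at 60 min.

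Seen from C/EBPα, 2228 of the 5460 C/EBPα-rich bins (40.8%, 39.5 to 42.1) were PU.1-rich, beside 0.402% of all bins. A further 2162 had 2 to 7 PU.1 reads and 1070 (19.6%) had 0 or 1. PU.1 was also often near rather than in the bin. A PU.1-rich bin lay within 1 kb of 37.3% (35.6 to 39.0) of C/EBPα-rich bins with under 8 PU.1 reads and of 25.0% (22.4 to 27.7) of those with 0 or 1, beside 2.82% of all bins. The median distance was 5000 bp for the latter and 53000 bp for all bins. Without the long runs and chromosome starts 38.4% of C/EBPα-rich bins were PU.1-rich.

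Bins rich in both factors lay within 1 kb of a TSS in 9.74% of cases (8.54 to 11.0), C/EBPα-rich bins with 0 or 1 PU.1 read in 12.8% and PU.1-rich bins in 13.4%, beside 2.36% of all bins. Bins rich in both factors had more PU.1 than PU.1-rich bins at large, with a median of 18 against 13 reads. The bins just past the threshold were weak. The 935 bins with exactly 8 C/EBPα reads had on average 6.30 reads among those that thinning had left out, after scaling, against 4.70 in the 1679 bins with 7. The 7170 bins with exactly 8 PU.1 reads had 1.53 C/EBPα reads on average and the 10061 with 7 had 1.42.

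C/EBPα-rich bins held the C/EBP consensus more often than bins of the same GC content. TTGCNNAA occurred in 9.59% of all bins, in 8.98% of PU.1-rich bins, in 23.7% (21.9 to 25.5) of bins rich in both factors and in 33.1% (30.3 to 35.99) of C/EBPα-rich bins with 0 or 1 PU.1 read. Bins of the same GC content held it in 7.90%, 7.89% and 8.37% of cases, so that the latter sets exceeded them 3.00-fold and 3.95-fold. PU.1-rich bins with the consensus had 3.77 C/EBPα reads on average at 10 min and those without it 1.88, and 12.2% and 3.89% of them were C/EBPα-rich.

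In mean reads, the ratio of bins with to bins without the consensus was greater where PU.1 was higher. In bins with 0 or 1 PU.1 read, those with the consensus had 0.976 times the C/EBPα reads of those without. The ratio was 1.07 with 2 to 3 PU.1 reads, 1.47 with 4 to 7, 1.91 with 8 to 15, 1.96 with 16 to 31, 2.05 with 32 to 63 and 2.51 (2.39 to 2.64) with 64 or more. At 0 hpi the ratio reached 1.58 at most. From 0 hpi to 10 min, PU.1-rich bins with the consensus were 1.57-fold higher and those without it 1.07-fold. From 10 to 60 min the factors were 2.34 and 1.72. In the highest class 30.6% of the 235 bins with the consensus were C/EBPα-rich, the greatest share of any class of PU.1 reads split by this consensus. The enrichment of the consensus among C/EBPα-rich bins was not greater with PU.1. With 0 or 1 PU.1 read, 33.1% of C/EBPα-rich bins held it, against 9.70% of all bins of that class. Among PU.1-rich bins these values were 23.7% and 8.98%.

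**Figure D3:**
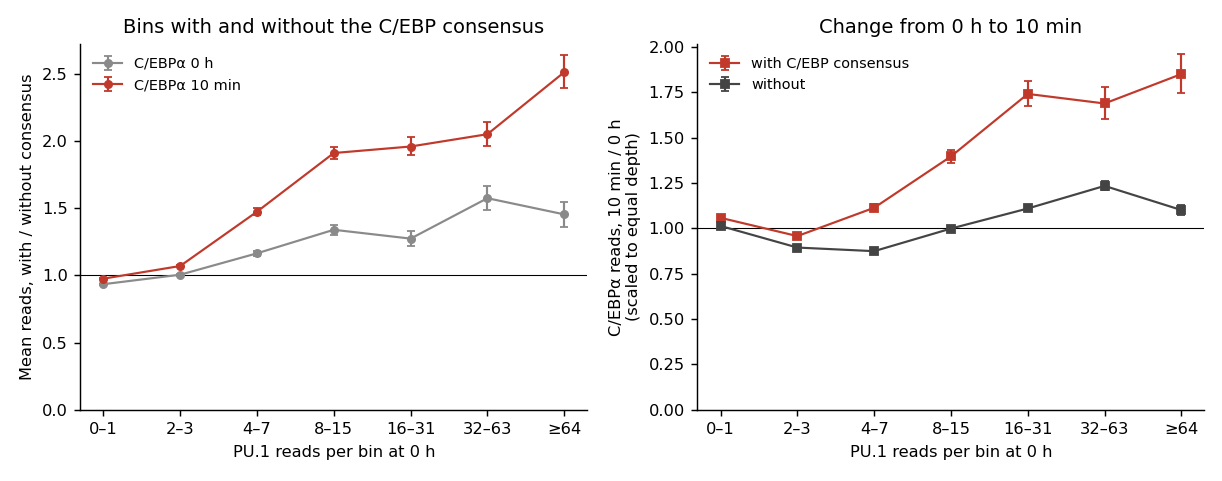
Left, mean C/EBPα reads in bins with TTGCNNAA over those without it, by PU.1 reads at 0 hpi, for the libraries of 0 hpi and 10 min. Right, C/EBPα reads at 10 min over 0 hpi at equal depth in bins with and without the consensus, with 95% counting intervals and a line at 1. The 10 min line on the left runs from 0.976 to 2.51, and on the right bins with the consensus reach 1.85 and those without it 1.23.

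Among bins of like PU.1 level the PU.1 consensus went with lower C/EBPα, while over all bins it went with more C/EBPα-rich bins. GAGGAAGT occurred in 1.24% of all bins, 19.02% of PU.1-rich bins and 33.2% of those with 64 or more PU.1 reads, in 5.79% of C/EBPα-rich bins, in 11.8% of bins rich in both factors and in 1.12% of C/EBPα-rich bins with 0 or 1 PU.1 read. Over all bins 0.173% of those with the PU.1 consensus alone were C/EBPα-rich, against 0.0347% with neither consensus, and 0.706% with both against 0.127% with the C/EBP consensus alone. PU.1-rich bins with it had 0.749 times (0.736 to 0.762) the C/EBPα reads of those without it, and the ratio lay under 1 in every PU.1 class. Of PU.1-rich bins with the C/EBP consensus alone, 13.0% (11.9 to 14.2) were C/EBPα-rich. The share was 8.15% (6.26 to 10.39) with both consensus sequences, 4.24% with neither and 2.42% (2.10 to 2.77) with the PU.1 consensus alone. Where both were present, 12.8% of 117 bins were C/EBPα-rich when their starts lay up to 20 bp apart, 9.36% of 267 at 21 to 60 bp, and 5.59% of 340 beyond that. The intervals of the first and the last (7.36 to 20.3 and 3.40 to 8.59) overlapped.

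The 8-base palindrome TTGCGCAA, the symmetrical form of the C/EBP site and a subset of TTGCNNAA, was rare (0.0167% of bins) and had its reads before induction. The 30 PU.1-rich bins that held it had 22.6 C/EBPα reads on average at 10 min and 22.6 at 0 hpi, and 21 of them (70.0%) were C/EBPα-rich. In bins with 0 or 1 PU.1 read bins with the palindrome had 1.204 reads at 10 min and 2.32 at 0 hpi.

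A further sequence was looked for after the *Mrps18a* bin had been read, and its share is a description of a choice made on these data. TTGCATCA (reverse complement TGATGCAA) joins one arm of a C/EBP site to one arm of a cyclic AMP response element, and heterodimers of C/EBP and ATF factors are known to bind it. It occurred in 0.638% of all bins, 0.834% of PU.1-rich bins, 3.82% of bins rich in both factors and 4.67% of C/EBPα-rich bins with 0 or 1 PU.1 read. Of the 476 bins rich in both factors that also had 8 or more C/EBPα reads at 0 hpi, outside long runs and chromosome starts, 51 (10.7%, 8.08 to 13.8) held it, and with the long runs and chromosome starts 51 of 730 (6.99%). Among those with 0 or 1 read at 0 hpi it was 3 of 323 (0.929%, 0.192 to 2.69) without them and 3 of 324 (0.926%) with them. Of the 8 named bins with C/EBPα alone, those of *Mrps18a* and *Plxna1*, a semaphorin receptor gene, held it.

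The letters of other pre-B factors were shared by both kinds of C/EBPα-rich bins. The EBF1 consensus TCCCNNGGG stood in 9.78% of bins rich in both factors and 8.79% of C/EBPα-rich bins with 0 or 1 PU.1 read, each about 2.88 times its share at the same GC content. The RUNX consensus TGTGGTT stood in 10.7% and 12.2%, which was 2.35 and 2.62 times its share at the same GC content. For the AP-1 consensus TGAGTCA the factors were 1.57 and 1.57, and for the E-box CAGCTG 1.56 and 1.84. PU.1-rich bins with 0 or 1 C/EBPα read stayed between 1.11 and 1.28 for these 4 sequences. EBF1, RUNX and E-box factors are regulators of early B cells, and AP-1 stands for dimers of Jun and Fos proteins. All bins held TCCCNNGGG in 1.95% of cases, TGTGGTT in 4.87%, TGAGTCA in 3.24% and CAGCTG in 7.55%.

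The C/EBPα-rich bins differed in how much C/EBPα they had before induction. Of the bins rich in both factors, 730 (32.8%) had 8 or more C/EBPα reads at 0 hpi, 1174 (52.7%) had 2 to 7 and 324 (14.5%) had 0 or 1. With 0 or 1 PU.1 read the shares were 16.3%, 53.4% and 30.4%. Without long runs and chromosome starts 476 of the 1956 bins rich in both factors (24.3%) had 8 or more reads at 0 hpi. The reads of 10 min that thinning had left out took no part in choosing the bins, although they come from the same library. By these reads the bins with 0 or 1 read at 0 hpi had 10.2 reads with PU.1 and 8.82 without it. These bins were chosen for few C/EBPα reads at 0 hpi and for 8 or more at 10 min. Such a choice by itself sets the first value low and favours a rise to the second.

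The later libraries took no part in the choice. Between 60 min and 3 hpi the C/EBPα read length changed from 50 to 36 bases, so that time and read length cannot be told apart there. C/EBPα-rich bins with PU.1 and 0 or 1 C/EBPα read at 0 hpi had 32.6 C/EBPα reads at 30 min, 26.8 at 60 min, 18.8 at 3 hpi, 15.1 at 12 hpi, 10.2 at 24 hpi and 8.34 at 48 hpi. Those without PU.1 had 31.3 at 30 min and 4.03 at 48 hpi. Bins with 8 or more reads at 0 hpi were at 29.6 with PU.1 and 14.7 without it at 48 hpi, and C/EBPβ at 0 hpi was 17.4 and 11.4 in them, against 3.26 and 2.06 where C/EBPα was low at 0 hpi. In the first of these groups 254 of the 730 bins were in long runs or at chromosome starts. The 476 others had 53.1 C/EBPα reads at 30 min, 29.4 at 48 hpi and 16.5 of C/EBPβ at 0 hpi. Of bins rich in both factors, 94.4% (93.4 to 95.3) had 8 or more C/EBPα reads at 30 min, 92.6% at 60 min, 87.8% at 3 hpi, 68.3% at 24 hpi and 60.7% at 48 hpi. Of C/EBPα-rich bins with 0 or 1 PU.1 read the shares were 88.4%, 85.4%, 71.2%, 35.2% and 27.6%. The corresponding share of all bins was 0.158% at 30 min, 0.185% at 60 min, 0.227% at 3 hpi, 0.123% at 24 hpi and 0.0979% at 48 hpi. The shares of bins rich in both factors include the 272 in long runs or at chromosome starts. Their mean at 48 hpi was 28.6 C/EBPα reads, against 16.8 in the other 1956. Only 2 of the 1070 bins with 0 or 1 PU.1 read were of this kind. Bins rich in both factors also started higher than these 1070. They had 15.5 against 10.9 C/EBPα reads at 10 min by left-out reads, and 8.47 against 4.68 at 0 hpi. The part of this starting level in the later shares was not tested.

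**Figure D4:**
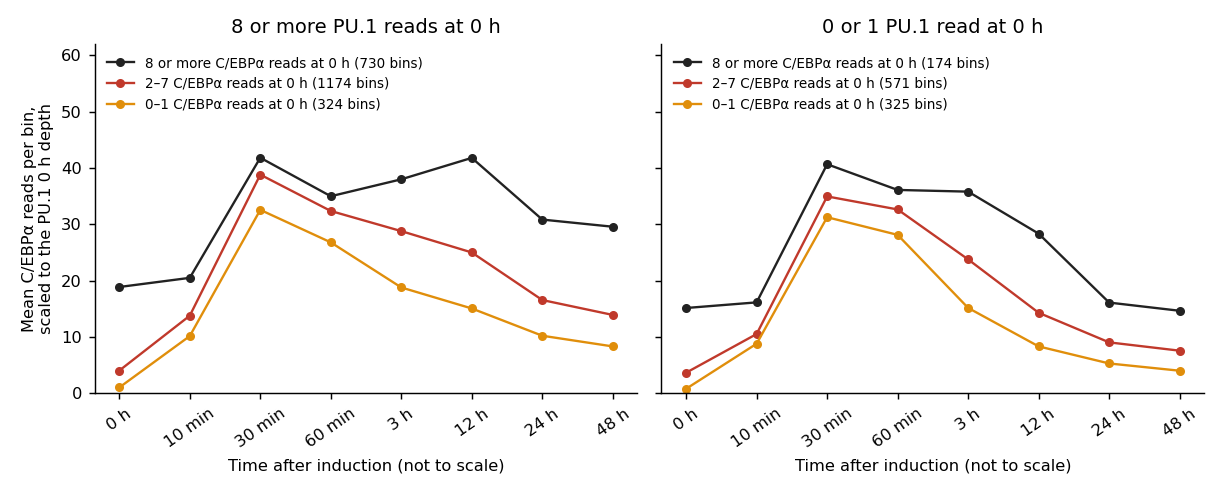
Mean C/EBPα reads per bin, scaled to the PU.1 depth, at bins that were C/EBPα-rich at 10 min, over 8 time points. Left, bins with 8 or more PU.1 reads at 0 hpi, and right, bins with 0 or 1, each divided by C/EBPα reads at 0 hpi; the point at 10 min uses reads left out by thinning. All 6 lines are highest at 30 min or, for the black line on the left, level at 30 min and 12 hpi (41.8), without correction for the position limit, and at 48 hpi they range from 4.03 to 29.6.

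PU.1 at later times was above the mean of all bins, but far under that of PU.1-rich bins, where C/EBPα was high without it. In C/EBPα-rich bins with 0 or 1 PU.1 read, PU.1 averaged 0.550 reads at 0 hpi, 2.75 at 3 hpi, 2.45 at 12 hpi, 1.89 at 24 hpi and 1.95 at 48 hpi, where the mean of all bins was 0.575 at equal depth, and 4.58% of them had 8 or more PU.1 reads at 3 hpi, 5.79% at 12 hpi, 2.52% at 24 hpi and 2.71% at 48 hpi, beside 0.458%, 0.67%, 0.471% and 0.458% of all bins. These bins were chosen for few PU.1 reads at 0 hpi, and such a choice by itself sets that first value low. In bins rich in both factors PU.1 was 32.5 at 0 hpi, 38.2 at 3 hpi, 31.04 at 12 hpi, 22.9 at 24 hpi and 26.3 at 48 hpi. PU.1 in PU.1-rich bins with 0 or 1 C/EBPα read was 19.2 at 0 hpi, 18.99 at 3 hpi and 15.6 at 48 hpi. Correcting for the position limit, on the assumption that reads fall evenly over the 400 positions, moved the means of bins rich in both factors from 15.8 to 17.7 at 10 min, from 38.9 to 45.9 at 30 min and from 32.4 to 39.8 at 60 min. In C/EBPα-rich bins with 0 or 1 PU.1 read it moved them from 34.8 to 40.2 at 30 min and from 31.8 to 39.0 at 60 min, which left these time points nearly level.

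The strongest single bins, ranked by their reads at 0 hpi (PU.1) and 10 min (C/EBPα), took different courses at later times. The nearest TSS within 50 kb names each bin and does not make that gene a target. In the *Hs3st1* intron PU.1 had 117 reads at 0 hpi (96.8 to 140) and C/EBPα 5 reads at 0 hpi (1.62 to 11.7) and 71 at 10 min (55.5 to 89.6), all at equal depth. The count at 10 min also ranked the bin, which its interval does not cover, and left-out reads gave 59.1 at 10 min. C/EBPα there was at 41.3 at 3 hpi, 27.1 at 12 hpi, 22.3 at 24 hpi and 7.98 at 48 hpi, and PU.1 at 126 at 3 hpi, 63.2 at 12 hpi, 27.9 at 24 hpi and 10.8 at 48 hpi. At 48 hpi C/EBPα was thus near its level of 0 hpi, and PU.1 was under a level that it had held before induction. At *Irf2bp2* PU.1 had 62 reads and C/EBPα 18 at 0 hpi and 66 at 10 min. There C/EBPα was at 115 at 3 hpi and 99.4 at 48 hpi and PU.1 at 43.2 at 48 hpi. In the intron of *Tbc1d16*, a gene for a Rab GTPase-activating protein, C/EBPα was 50 at 10 min and 10.6 at 48 hpi while PU.1 was 108 at 0 hpi and 8.10 at 48 hpi. Left-out reads at 10 min gave 63.1 at *Irf2bp2* and 50.0 at *Tbc1d16*. At 10, 30 and 60 min the 3 bins had between 176 and 267 reads before scaling out of the possible 400, so that no order among these time points can be read from them.

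In the other 5 leading bins of both factors, PU.1 at 0 hpi lay between 53 and 219 reads and C/EBPα at 10 min between 50 and 56. By left-out reads C/EBPα at 10 min lay between 40.5 and 63.5 in these bins. Those in introns of *Gm885* and *Zc3h12d*, which encodes a regulator of RNA stability, had 20 and 50 C/EBPα reads at 0 hpi. Those in an intron of *Ppt1*, a lysosomal thioesterase gene, and upstream of *Capn13*, a calpain gene, had 6 each. The bin 23481 bp upstream of *Gm5614* had 138 C/EBPα reads at 0 hpi and 50 at 10 min, and C/EBPβ stood at 243 at 0 hpi and between 265 and 439 afterwards. By scaled reads PU.1 there lay between 140 and 235 and C/EBPα between 44.3 and 186 at all times. It was thus high in all libraries, like the bins described above with reads in all libraries alike, and held none of the 7 consensus sequences searched. The *Gm5614* bin was the only one of the 8 with more C/EBPα before induction than at 10 min, also by left-out reads (42.1 there). The 8 were ranked by reads that include those of 10 min, which favours higher values at 10 min.

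Where C/EBPα was high without PU.1, the *Mrps18a* bin had 1 PU.1 read (at most 5.57 by its interval) and 17 C/EBPα reads at 0 hpi and 69 at 10 min. At 48 hpi C/EBPα was 107 there, C/EBPβ 75.2 and PU.1 6.74. The *Smad3* bin had 0 PU.1 reads, at most 3.69 by its interval, and C/EBPα was 36 at 0 hpi, 69 at 10 min and 102 at 48 hpi. The *Plxna1* intron went from 23 at 0 hpi and 46 at 10 min to 2.66 at 48 hpi. The bin named for *Bre*, a DNA repair gene, lay in an intron of *Mrpl33* and had the fewest C/EBPα reads at 0 hpi of the 8, with 1 read, against 57 at 10 min and 3.55 at 48 hpi. In the intron of *Hnrnph1*, a splicing factor gene, 59 reads at 0 hpi stood against 54 at 10 min. The counts at 10 min chose and ranked these bins. Left-out reads at 10 min gave 61.5 at *Mrps18a*, 57.9 at *Smad3*, 45.2 at *Plxna1*, 40.9 at *Bre* and 50.8 at *Hnrnph1*. PU.1 was at most 6.75 reads at 48 hpi in all 8 of these bins.

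Among the strongest PU.1 bins chosen for few C/EBPα reads, the *Tet3* and *Ahnak* bins had 235 PU.1 reads each at 0 hpi and 0 C/EBPα reads at 10 min, at most 3.69 by the interval. Left-out reads gave 1.98 and 1.59 there. At *Tet3* C/EBPα stayed between 0.72 and 4.72 reads from 30 min to 48 hpi, and PU.1 was 160 at 48 hpi. The other 6, named for *Htra4*, *Ppp1r1c*, *Tanc1*, *4831426I19Rik*, *Cd81* and *Arid3b*, had 205 to 219 PU.1 reads and were chosen for at most 1 C/EBPα read at 10 min. By left-out reads C/EBPα at 10 min was 6.74 at *Htra4*, 4.76 at *Tanc1*, 3.97 at *Arid3b* and between 0.40 and 1.19 at the others. At later times it was at most 13.0, at *Htra4* at 12 hpi. *Cd81* encodes a tetraspanin of the B cell surface. Of these 8 bins, 6 held GAGGAAGT and the *Arid3b* bin also held TTGCNNAA.

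Genes of both the old and the new lineage had bins rich in both factors. By nearest TSS within 50 kb, 959 of 21275 protein-coding genes (4.51%) had such a bin. Among the lists, they were 4 of 15 B-lineage transcription factor genes, 7 of 15 pre-B receptor and recombination genes, 5 of 15 genes of myeloid regulators, 10 of 27 macrophage effector genes, 7 of 24 immediate-early and feedback genes and 0 of 16 liver genes. PU.1-rich bins were more widespread, at all 15 B-lineage transcription factor genes, 23 of 27 macrophage effector genes and 4 of 16 liver genes, beside 47.3% of all genes. C/EBPα-rich bins stood at 7 of 15 B-lineage transcription factor genes, 15 of 27 macrophage effector genes and none of the liver genes, beside 9.68% of all genes. These shares describe the lists, since genes with more surrounding sequence have more bins. *Syk*, *Btk*, *Cebpd*, *Gfi1*, *Tfec*, *Cybb* and *Otc* were not analysed here.

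In the strongest bin of both factors at each of these 33 genes, C/EBPα at 10 min by the left-out reads exceeded C/EBPα at 0 hpi in 32. These bins were chosen for 8 or more reads of the same 10 min library, so that the choice favours this direction. In all PU.1-rich bins, chosen without C/EBPα, left-out reads were 1.13 times those of 0 hpi. By scaled reads 30 min exceeded 10 min in all 33, although the position limit bears on this difference in the strongest of them, such as that of *Ehd1*. Over all 2228 bins of both factors the shares for these 2 comparisons were 83.1% and 93.1%. That set counts every bin, not 1 per gene, and includes the 272 in long runs or at chromosome starts. The median of the 33 list bins was 13.5 reads at 10 min and 5 at 0 hpi, which compares with 12.7 and 5 over all bins rich in both factors.

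Among the B-lineage genes, the bin at *Pax5*, the factor that maintains B cell identity, had 10 PU.1 reads and 5 C/EBPα reads at 0 hpi and 11.1 at 10 min (chr4:44718201-44718400). *Ikzf1*, which encodes Ikaros, had 15 PU.1 reads and none of C/EBPα at 0 hpi, and C/EBPα was 5.16 at 10 min, 33.7 at 30 min and 30.2 at 48 hpi (chr11:11586201-11586400, 69 bp from the TSS). At *Foxo1*, which encodes a factor needed for V(D)J recombination, C/EBPα was 1 at 0 hpi, 6.35 at 10 min, 18.5 at 30 min and 0 at 48 hpi, and PU.1 was 14 at 0 hpi and 2.02 at 48 hpi. *Bcl11a*, a B cell regulator, had 3 and 13.5. *Igll1*, the λ5 chain of the pre-B receptor, had 10 C/EBPα reads at 0 hpi, 18.6 at 10 min and 0.89 at 48 hpi. *Il7r*, the interleukin 7 receptor, had 3, 18.3 and 4.43. *Dntt*, terminal transferase, was the one gene whose chosen bin had fewer left-out reads at 10 min (3.97) than reads at 0 hpi (6). Its thinned count at 10 min was 13, and another bin of both factors at this gene had 17.5 left-out reads against 8. The kinase gene *Lyn*, the adaptor gene *Blnk* and the phospholipase gene *Plcg2* had 10.7, 13.1 and 37.3 at 10 min, against 3, 4 and 14.

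Among the myeloid genes, *Sfpi1*, the gene of PU.1, had 76 PU.1 and 25 C/EBPα reads at 0 hpi, 37.7 at 10 min, 92.0 at 30 min and 102 at 48 hpi, 754 bp from its TSS (chr2:90923201-90923400). *Nfe2*, which encodes a bZIP factor of blood cells, had 17 PU.1 reads and 29 and 47.2 C/EBPα reads. *Ehd1*, a gene of endocytic recycling, had 53 PU.1 reads and 26 C/EBPα reads at 0 hpi and 54.0 at 10 min. *Ncf1*, a subunit of the phagocyte oxidase, had 16 PU.1 reads and went from 6 at 0 hpi to 32.5 at 10 min, 119 at 30 min and 84.3 at 48 hpi (chr5:134708601-134708800). *Il1b*, the inflammatory cytokine, had 33 PU.1 reads and 7 and 26.6 of C/EBPα. *Tyrobp*, a signalling adaptor, had 25 PU.1 reads and 6 and 16.3 of C/EBPα. The cathepsin genes *Ctsd* and *Ctsb* had 5.95 and 14.7 at 10 min, against 3 and 4, and *Ctsd* reached 69.2 at 48 hpi. *Runx1*, *Irf5* and *Hhex*, all transcription factor genes, had 7.93, 6.74 and 10.7 at 10 min, against 5, 6 and 3. The strongest C/EBPα bin at *Runx1* had 4 PU.1 reads, with 26 C/EBPα reads at 0 hpi and 69.0 at 10 min by left-out reads.

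The immediate-early genes had wide PU.1 ranges. The *Fos* bin had 15 PU.1 reads, and C/EBPα there was 2 at 0 hpi, 30.2 at 10 min, 84.9 at 30 min and 26.6 at 48 hpi (chr12:86809801-86810000), the highest ratio of 10 min to 0 hpi among the 31 list genes with more than 1 read at 0 hpi. *Junb*, another AP-1 subunit, had 13 and 17.9. *Atf3*, a stress-induced bZIP factor, had 142 PU.1 reads, the highest among these bins of both factors at list genes, and 5 and 16.3 of C/EBPα. *Socs3* and *Tnfaip3*, feedback inhibitors of cytokine and NF-κB signalling, had 7.54 and 7.14 at 10 min, against 6 and 4. Their strongest C/EBPα bins had under 8 PU.1 reads. That of *Socs3*, with 7 PU.1 reads, had 2 C/EBPα reads at 0 hpi and 21.8 at 10 min by left-out reads. That of *Tnfaip3*, with 1 PU.1 read, had 1 and 26.6. *Btg2*, an antiproliferative gene, had 16.7, against 7. Single bins of so few reads have wide counting intervals, and the smaller of these differences lie within them.

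**Figure D5:**
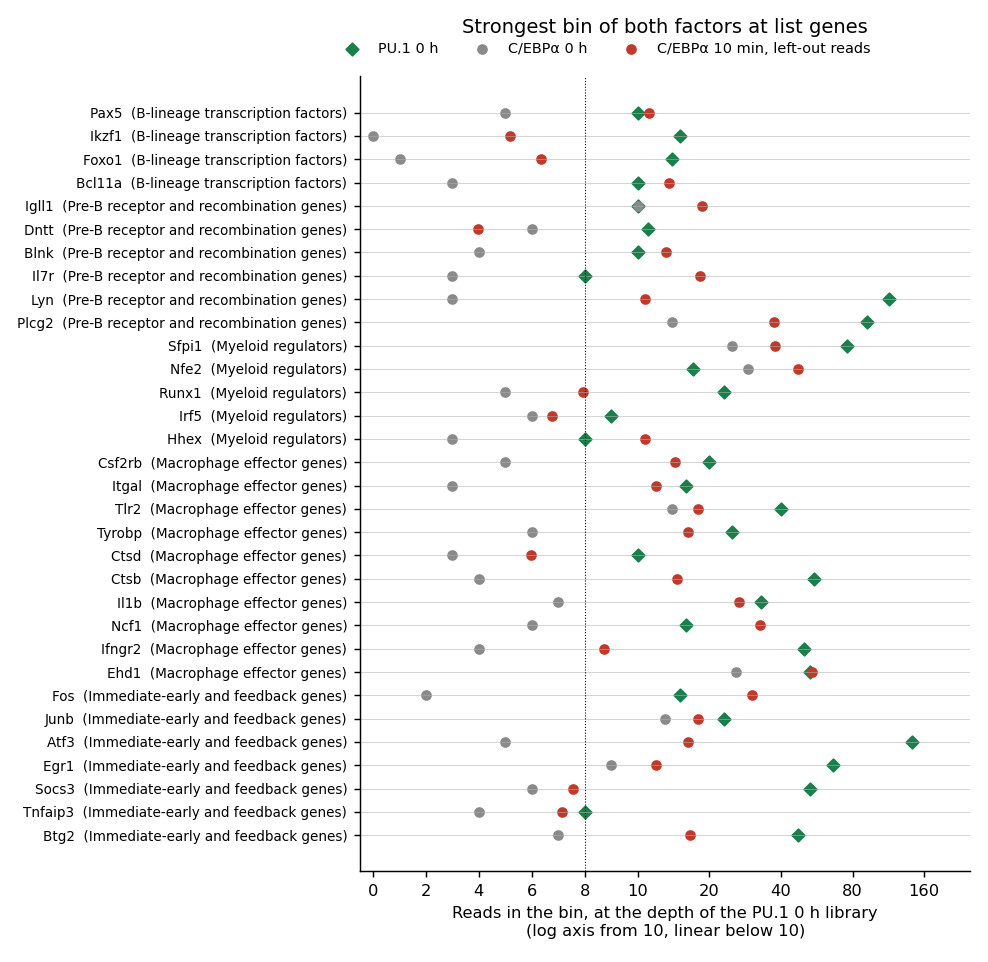
Reads in the strongest bin of both factors at 32 genes of 5 lists, at the depth of the PU.1 library (axis linear below 10 and logarithmic above). Diamonds are PU.1 at 0 hpi, grey circles C/EBPα at 0 hpi and red circles C/EBPα at 10 min from reads left out by thinning; the dotted line marks 8 reads. Red lies to the right of grey in 31 of 32 genes, with *Dntt* the exception. The bins were chosen for 8 or more reads of the 10 min library, which favours this direction.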

How the data were processed

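Binding of PU.1 and of both C/EBP factors was profiled by ChIP-seq in C10 cells, each time point as a single library. The authors deposited 1 line per uniquely aligned mm9 read with position and strand, so that read counts per bin are raw counts without normalization. Their processing notes name Bowtie and HOMER. The PU.1 file of 0 hpi had 1 incomplete line, which was skipped, and its reads are described as merged by the study and were taken as 1 library. The methods state that identical reads were removed, but up to 2.52% of reads in a library shared position and strand with another.

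Reads were counted in 200-bp bins of chr1-19 without N (393593 bins with N left out) with Python 3.11.15, numpy 2.4.6, pandas 2.3.3 and scipy 1.17.1. Deeper libraries were thinned once, with seed 1, for shares of bins with 8 or more reads, and means of other time points used all reads scaled to the PU.1 depth. TSSs were those of GENCODE vM1 protein-coding genes, and sequences came from NCBIM37. Scripts were tested on simulated reads.

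Named were the first 8 bins of each of 3 sets by read count, outside long runs and chromosome starts, 1 per gene, and list genes with a bin of both factors. One such bin and 1 such list gene are counted but not reported here. Members and lists were chosen with earlier results of these data known. Alternatives varied the threshold, shift, grid, draw, duplicates, TSS distance and long runs.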

Additional observations from a re-analysis of the deposited data

How the results depend on the processing

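No paired analysis was possible because each factor and time point had 1 library. Of 63 alternative values, 34 stayed within the counting interval of the main value (for bins taken, within 1.5 times), 29 moved and none changed sign. Counts of bins taken and shares cannot change sign, so that this bears on the log2 ratios only. Bins within 1000 bp of a TSS taken alone were not among the alternatives, and there the ratio to 0 hpi was under 1 in every PU.1 class. Some of the 34 could not move. The PU.1 class result does not use the threshold of 8 reads. The PU.1 library of 0 hpi and the C/EBPα library of 10 min held no duplicates, so that all reads as deposited could change only the ratio to 0 hpi. With 12 or more reads in place of 8, 30041 bins were taken, 3.49% of PU.1-rich bins were C/EBPα-rich, 34.3% of C/EBPα-rich bins were PU.1-rich, the log2 ratio of 10 min to 0 hpi in PU.1-rich bins was 0.24 (main value 0.16) and that of bins with against without TTGCNNAA 1.04 (main value 1.01). With 6 or more reads these were 81277 bins, 5.32%, 34.998%, 0.094 and 0.97. The log2 ratio of C/EBPα in bins with 32 or more against 0 or 1 PU.1 read was 2.55. Over 1000 bp from any TSS it was 2.57, the first share 4.83%, the ratio to 0 hpi 0.24 and the consensus ratio 0.97. Without long runs and chromosome starts they were 2.48, 4.10%, 0.20 and 1.07, and the second share 38.4%. Moving 5′ ends by 50 bp gave 2.53 for the PU.1 classes and 0.94 for the consensus, moving them by 100 bp 1.03 for the consensus, and a grid moved by 100 bp 1.03. All reads as deposited gave 0.15 for the ratio to 0 hpi. After the data had been seen, bins with a read in any other library (92.1% of bins) gave 2.43 for the PU.1 classes, and leaving out bins with 8 or more C/EBPα reads at 0 hpi gave 3.19%, 36.9%, 2.27 and 0.72. The single draw, the position limit of 400 reads per bin and the lack of input and replicate libraries bound what these values can show.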
